A study of Mus musculus with 9 samples.

Results

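The glycolysis and hypoxia response genes described here are 40 mouse genes that carry, control or accompany the use of glucose when oxygen is short. They were taken as a list of gene symbols, and each was read from the probe sets that name it and no other gene, using the one with the highest mean over the arrays. Of the 40 genes, 37 had such a probe set, and 34 passed a filter on dim values and were tested, among 19933 genes measured and 13207 tested in all. The question was whether yolk sacs without Rnh1 show a shift of hypoxia response genes, with the glycolytic enzymes looked at apart from the rest.

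RNA was measured in whole mouse yolk sacs at embryonic day 9.5 on 9 Affymetrix whole-transcript arrays, 3 for each of 3 genotypes. The KO embryos carried no functional copy of Rnh1 (Rnh1 -/-), the HET embryos were Rnh1 +/-, and the WT embryos were Rnh1 +/+. All were of a mixed SV 129 and C57BL/6 background and untreated, and the labels state that maternal tissue was kept out of the dissection. The labels describe no tissue-restricted deletion, litter, pooling or sex, and do not say that replicates came from separate animals, so p-values here measure the spread between these samples. Rnh1 encodes the cytosolic inhibitor of pancreatic-type ribonucleases.

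Cells sense oxygen through prolyl hydroxylases, which mark the alpha subunits of the hypoxia-inducible factors (HIF) for destruction by the VHL ubiquitin ligase while oxygen is present. When oxygen falls the alpha subunits persist, pair with ARNT and bind short DNA elements beside their target genes, which raise glucose uptake and glycolysis, divert pyruvate from mitochondria, and feed back on the sensors themselves. The yolk sac at this stage makes the primitive red cells of the embryo and absorbs and processes nutrients through its visceral endoderm.

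The core letters of the HIF element, ACGTG or GCGTG on either strand, were searched in RefSeq promoter windows of build GRCm38.p6. A window runs over 250 bases before and 50 after a gene's start. Of the 34 members with a listed promoter, 30 (88.2%) held a match, against 65.8% of the tested genes and 46.7% of all genes with a promoter. By promoter, 36 of 46 member windows (78.3%) held one, against 60.2% for tested genes and 43.8% for all 32851 windows. For ACGTG alone the shares of windows were 54.3% for members, 24.7% for tested genes and 19.6% for all. Because CACGTG holds ACGTG on both strands, it counts as overlapping matches. Ndrg1, Nrn1, Loxl2, Slc2a3, Bhlhe40 and Plod2 were not looked up in this way. A match describes letters in a window, and is not shown to be a site in use.

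The bases before the start are printed for 5 members, 5′ to 3′ along the gene's strand, with the core letters in capitals. Hk2 and Ddit4 are shown as glycolytic and feedback members that were higher in KO than in WT, Ldha and Pgk1 as enzymes often used as hypoxia markers that did not pass the test, and Car12 as the tested member with the largest fall in KO against WT. The windows are chr6:82774455-82774704 on the minus strand for Hk2, chr10:59951771-59952020 on the minus strand for Ddit4, chr7:46845554-46845803 on the plus strand for Ldha, chrX:106186850-106187099 on the plus strand for Pgk1 and chr9:66713436-66713685 on the plus strand for Car12.
Hk2: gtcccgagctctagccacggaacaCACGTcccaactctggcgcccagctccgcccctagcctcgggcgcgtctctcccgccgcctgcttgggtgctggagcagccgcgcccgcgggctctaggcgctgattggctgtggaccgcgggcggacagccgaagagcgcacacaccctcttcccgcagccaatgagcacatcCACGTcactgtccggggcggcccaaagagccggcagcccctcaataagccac
Ddit4: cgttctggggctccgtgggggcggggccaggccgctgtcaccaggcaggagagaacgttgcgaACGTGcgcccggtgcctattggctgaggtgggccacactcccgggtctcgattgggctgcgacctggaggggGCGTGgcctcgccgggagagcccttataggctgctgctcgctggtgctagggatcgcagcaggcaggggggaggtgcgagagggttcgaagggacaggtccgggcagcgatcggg
Ldha: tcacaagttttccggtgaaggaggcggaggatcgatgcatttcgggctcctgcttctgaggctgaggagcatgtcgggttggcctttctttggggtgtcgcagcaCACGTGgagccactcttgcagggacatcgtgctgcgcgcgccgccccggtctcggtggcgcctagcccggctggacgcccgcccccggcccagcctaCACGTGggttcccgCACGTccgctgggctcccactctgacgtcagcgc
Pgk1: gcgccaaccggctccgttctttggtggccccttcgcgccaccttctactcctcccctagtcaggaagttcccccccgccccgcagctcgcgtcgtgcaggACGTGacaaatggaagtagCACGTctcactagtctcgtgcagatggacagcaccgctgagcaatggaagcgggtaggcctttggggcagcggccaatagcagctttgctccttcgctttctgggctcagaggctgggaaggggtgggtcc
Car12: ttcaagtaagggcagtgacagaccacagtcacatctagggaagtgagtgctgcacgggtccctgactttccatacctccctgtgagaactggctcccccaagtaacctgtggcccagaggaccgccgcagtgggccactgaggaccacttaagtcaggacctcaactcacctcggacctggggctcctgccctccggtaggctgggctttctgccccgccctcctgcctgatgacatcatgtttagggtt
The bases printed for Ldha held 5 matches counted on both strands, those for Hk2, Ddit4 and Pgk1 held 2 each, and those for Car12 held none. Ldha has 2 listed promoters, and the one with more ACGTG matches was printed. Its other window, chr7:46846832-46847131, held 2 matches, with 0 of ACGTG. Among members with a listed promoter, a match was present for 4 of the 4 that rose in KO against WT, 5 of the 6 that fell and 18 of the 20 that did not pass.

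Rnh1 itself stood at 6.28, 6.78 and 6.87 log2 signal on the KO arrays, 9.75, 9.75 and 9.77 on the HET arrays and 10.39, 10.42 and 10.32 on the WT arrays. The arrays labelled KO were thus the lowest, on the log2 scale of probe brightness used for all levels and differences here. Some arrays stood apart from the others of their genotype. The mean log2 signal of 8 parietal endoderm markers was 9.43, 9.41 and 9.73 on KO 1 to 3, 9.44, 9.47 and 9.39 on HET 1 to 3, but 10.35 and 10.77 on WT 1 and WT 3 against 9.49 on WT 2. The mean of the trophoblast markers was highest on KO 3, at 7.75 against 6.71 and 7.03 on the other KO arrays. Single trophoblast and decidua markers also varied within HET and WT, with values given below. Xist was at 11.05 to 11.67 on the KO arrays, at 10.56 on HET 2 and 5.15 and 5.76 on the other HET arrays, and at 10.65 or above on WT 2 and WT 3 against 5.69 on WT 1. KO 1, KO 2, HET 2 and WT 2, all high for Xist, also held the Y-linked Eif2s3y at 7.27 or above, against 4.41 on KO 3 and 4.34 on WT 3.

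In KO against WT the members split between rises and falls, with most not past the test. The hexokinase Hk2, the mTORC1 inhibitor Ddit4, the secreted glycoprotein Stc2 and the corepressor Rcor2 rose, while the phosphofructokinase Pfkp, the mitophagy receptor Bnip3, the carbonic anhydrase Car12, the collagen prolyl hydroxylase subunits P4ha1 and P4ha2, and Selenbp1 fell. These are 4 and 6 of the 34 tested members, and 24 did not pass limma's test at an adjusted p under 0.05. Among all genes tested, 8.27% were called higher and 15.2% lower, 23.5% in either direction, so the members' counts lay near that background. Groups did not overlap for 7 members that were higher and 9 that were lower in KO, against 15.8% higher, 24.7% lower and 40.5% in either direction over all genes. The median log2 difference of the 34 members was -0.04, with 15 above 0 and 19 below, and the median of all genes was 0.00. Without KO 3 the counts were 3 higher and 5 lower, and without WT 1 and WT 3 they were 0 and 3, when 2.01% and 6.98% of all genes were called. Leaving out WT 2 gave 2 higher and leaving out WT 1 gave 3 lower, when 4.76% and 8.75% of all genes were called in those directions. Without KO 3 the shares over all genes were 7.05% higher and 11.9% lower.

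**Figure D1:**
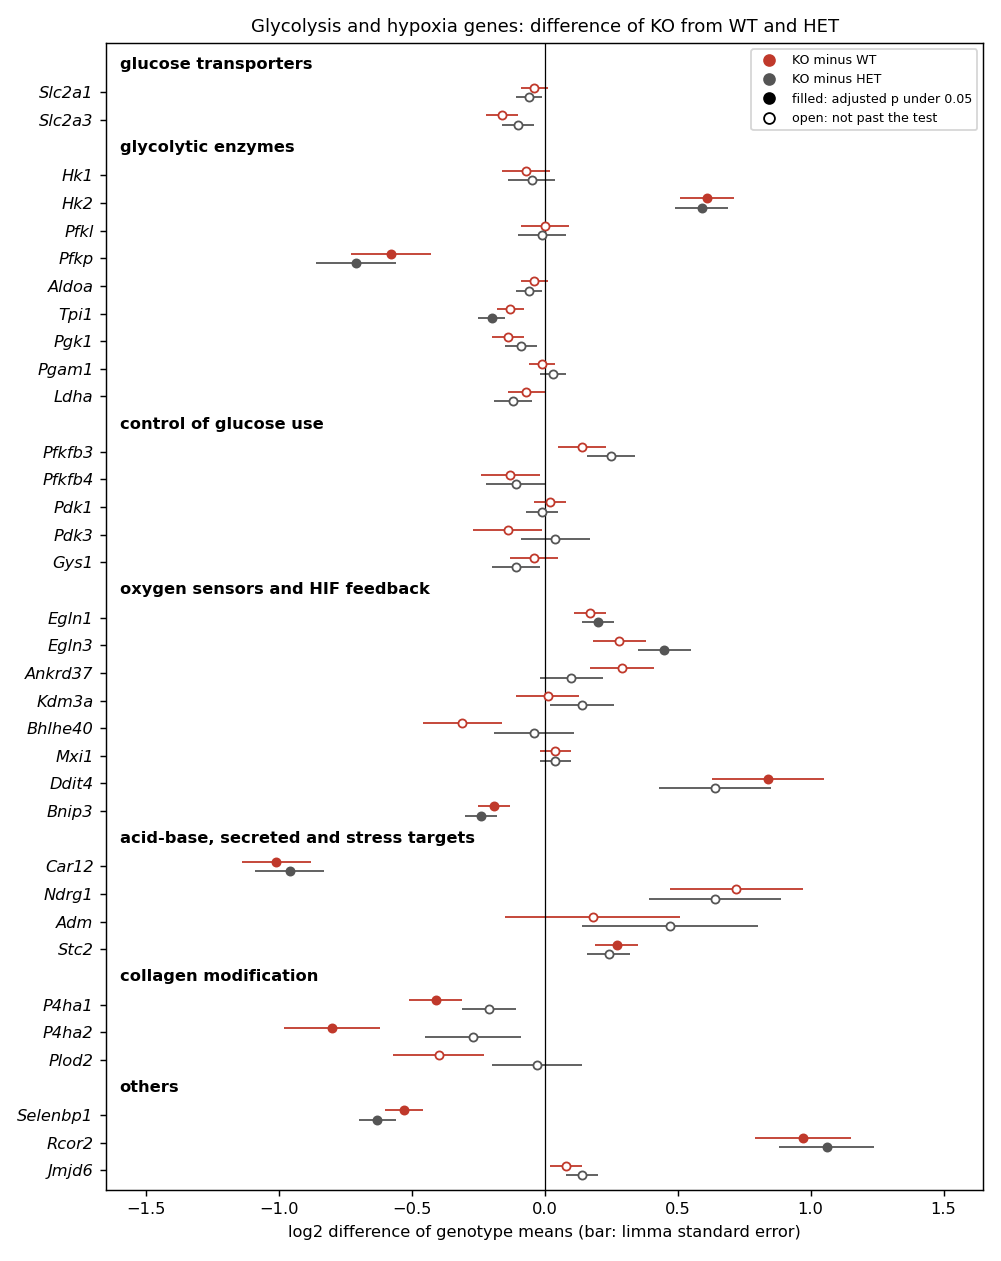
Log2 difference of genotype means for the 34 tested members, by role, for KO minus WT (red) and KO minus HET (grey). Bars are limma standard errors and filled points passed at an adjusted p under 0.05. Most points are open and lie within 0.3 of 0, and the filled ones lie on both sides of it.

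The glycolytic enzymes, which turn glucose into pyruvate and lactate, had a median difference of -0.07 over the 9 tested, against 0.01 over the 25 other members. Hk1, Aldoa, Tpi1, Pgk1, Pgam1 and Ldha lay between the 97.3 and 99.5 percentile of their arrays. Whether such brightness narrowed their differences was not tested. Hk2, the inducible hexokinase, was the 1 of the 9 that rose, and Pfkp the 1 that fell. Gpi1 and Eno1 had no probe set of their own.

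Hk2, which traps glucose in the cell by phosphorylation, read 8.93, 9.01 and 9.32 log2 signal on the KO arrays, 8.44, 8.62 and 8.43 on the HET arrays and 8.48, 8.47 and 8.47 on the WT arrays. Every KO array was above every HET and WT array, with KO 3 the highest. The KO mean was 0.61 ± 0.10 above WT (SE, 1.53-fold, limma adjusted p = 0.00389) and 0.59 ± 0.10 above HET (limma adjusted p = 0.00441).

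Pfkp, the platelet-type subunit of the enzyme that commits sugar to glycolysis, read 8.06, 8.39 and 8.45 on the KO arrays, 9.13, 9.06 and 8.85 on the HET arrays and 8.82, 9.17 and 8.66 on the WT arrays. No KO array reached any other array, and KO 1 was the lowest. The difference was -0.58 ± 0.15 from WT (limma adjusted p = 0.0216) and -0.71 ± 0.15 from HET (limma adjusted p = 0.0102). The call against WT was lost without WT 1 (-0.61, limma adjusted p = 0.0551) or WT 2 (-0.44, limma adjusted p = 0.0641), and the 24 alternatives ran from 0.004 to 0.0678. The liver-type subunit Pfkl differed by 0.00 ± 0.09 from WT (limma adjusted p = 0.99, 95% interval -0.20 to 0.20).

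Tpi1, triose phosphate isomerase, read 11.99, 12.06 and 12.01 on the KO arrays, 12.26, 12.18 and 12.23 on the HET arrays and 12.11, 12.16 and 12.16 on the WT arrays. All KO arrays lay below the rest and the HET arrays lay above the WT ones, over a narrow range. Tpi1 fell by 0.20 against HET (limma adjusted p = 0.0232), and its difference from WT was -0.13 ± 0.05 (limma adjusted p = 0.108). The call against HET was lost in 8 of 24 alternatives, among them those without HET 1, HET 3 or KO 3, over an adjusted p of 0.00311 to 0.155.

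Pgk1, the phosphoglycerate kinase, read 11.93, 11.90 and 12.09 on the KO arrays, 12.06, 12.07 and 12.07 on the HET arrays and 12.11, 12.07 and 12.16 on the WT arrays. KO 3 lay among the arrays of the other genotypes and KO 1 and KO 2 lay below them. Its difference from WT was -0.14 ± 0.06 (limma adjusted p = 0.149), and -0.20 without KO 3 (limma adjusted p = 0.0463, within 0.0286 to 0.553 over the 24 alternatives).

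Ldha, the lactate dehydrogenase subunit that regenerates NAD, read 12.67, 12.81 and 12.86 on the KO arrays, 12.92, 12.96 and 12.82 on the HET arrays and 12.91, 12.85 and 12.80 on the WT arrays. The groups overlapped, and the difference from WT was -0.07 with a 95% interval of -0.23 to 0.08 (limma adjusted p = 0.465). The aldolase Aldoa and the mutase Pgam1 differed from WT by -0.04 and -0.01, with limma adjusted p of 0.59 and 0.909. Hk1, the constitutive hexokinase, differed by -0.07 (limma adjusted p = 0.554), but the accession of its probe set is also listed by all 16 probe sets that name Rpl17 with Hk1, so the signal may be shared with those. The other Hk1 probe set, at a mean of 8.61 in KO, 8.62 in HET and 8.70 in WT, differed from WT by -0.09 (limma adjusted p = 0.489).

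Both glucose transporters were level or slightly low in KO. Slc2a1, which carries glucose into most cells, read 13.06, 13.06 and 13.08 on the KO arrays, 13.10, 13.15 and 13.12 on the HET arrays and 13.12, 13.10 and 13.11 on the WT arrays. The KO arrays lay just under all others, and the difference from WT was -0.04 ± 0.05 (limma adjusted p = 0.538, 95% interval -0.15 to 0.07). Slc2a3, a high-affinity transporter, read 13.13, 13.07 and 12.98 on the KO arrays, 13.17, 13.19 and 13.13 on the HET arrays and 13.23, 13.26 and 13.19 on the WT arrays. Its KO arrays lay below every WT array and at or below the lowest HET array, and its difference from WT was -0.16 ± 0.06 (limma adjusted p = 0.0655), or -0.20 without KO 1 (limma adjusted p = 0.0327, within 0.00789 to 0.2 over the 24 alternatives).

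None of the 5 members that direct glucose use passed the test, and their median difference was -0.04. Pfkfb3 and Pfkfb4 make the sugar bisphosphate that activates phosphofructokinase. Pfkfb3 read 8.30, 8.21 and 8.24 on the KO arrays, 7.98, 8.11 and 7.92 on the HET arrays and 8.04, 8.28 and 8.00 on the WT arrays. KO lay above HET on every array, while WT 2 lay among the KO arrays, at 0.14 ± 0.09 above WT (limma adjusted p = 0.247) and 0.25 above HET (limma adjusted p = 0.0686). Pfkfb4 read 8.47, 8.27 and 8.24 on the KO arrays, 8.23, 8.43 and 8.64 on the HET arrays and 8.58, 8.34 and 8.45 on the WT arrays, and the groups overlapped (-0.13 ± 0.11 from WT, limma adjusted p = 0.419). Pdk1 and Pdk3 are kinases that switch off pyruvate dehydrogenase. Pdk3 read 9.84, 9.32 and 9.62 on the KO arrays, 9.64, 9.67 and 9.35 on the HET arrays and 9.67, 9.85 and 9.69 on the WT arrays, again overlapping (-0.14 ± 0.13 from WT, limma adjusted p = 0.467). Pdk1 differed from WT by 0.02 (limma adjusted p = 0.823, 95% interval -0.12 to 0.16) and Gys1, the muscle-type glycogen synthase, by -0.04 (limma adjusted p = 0.787).

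The oxygen sensors and feedback genes had a median difference of 0.10 over 8 tested, with Ddit4 called higher and Bnip3 called lower. Egln1 and Egln3 are prolyl hydroxylases that mark HIF alpha subunits, and both are HIF targets. Egln1 read 9.54, 9.39 and 9.56 on the KO arrays, 9.34, 9.30 and 9.25 on the HET arrays and 9.33, 9.34 and 9.33 on the WT arrays. The KO arrays lay above all others, KO 2 by the least, with a difference of 0.20 ± 0.06 from HET (limma adjusted p = 0.0456) and 0.17 ± 0.06 from WT (limma adjusted p = 0.0767, and 0.0373 without KO 2, within 0.0186 to 0.353 over the 24 alternatives). The call against HET was lost in 17 of 24 alternatives, which gave an adjusted p of 0.0193 to 0.219.

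Egln3 read 8.38, 8.57 and 8.31 on the KO arrays, 8.01, 8.14 and 7.76 on the HET arrays and 8.14 on all 3 WT arrays. Here too every KO array lay above the others. It rose against HET by 0.45 ± 0.10 (limma adjusted p = 0.0146), and its difference from WT was 0.28 ± 0.10 (limma adjusted p = 0.0742, and 0.0359 without HET 3, within 0.00626 to 0.272 over the 24 alternatives). Some deposited values repeat exactly between arrays, for 9 of the 34 tested members, and within a genotype for 3 of them. Egln3 held 2 different values over the 3 WT arrays, which read alike as rounded here.

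Ddit4, which restrains the growth kinase complex mTORC1 under stress, read 7.76, 8.11 and 8.67 on the KO arrays, 7.61, 7.42 and 7.60 on the HET arrays and 7.45, 7.07 and 7.51 on the WT arrays. The KO arrays lay above the rest but were spread widely, KO 3 the highest and KO 1 close to the HET arrays. The difference was 0.84 ± 0.21 from WT (1.79-fold, limma adjusted p = 0.0201) and 0.64 ± 0.21 from HET (limma adjusted p = 0.0561). Without KO 3 it was 0.59 from WT (limma adjusted p = 0.0318) and without WT 2 it was 0.70 (limma adjusted p = 0.0711), within a range of 0.00126 to 0.0711 over the 24 alternatives.

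Bnip3, a mitochondrial receptor for mitophagy and a classical HIF target, read 10.72, 10.77 and 10.76 on the KO arrays, 11.04, 10.95 and 10.97 on the HET arrays and 10.96, 11.01 and 10.85 on the WT arrays. On this probe set the KO arrays lay below the others, with a difference of -0.19 ± 0.06 from WT (limma adjusted p = 0.0467) and -0.24 ± 0.06 from HET (limma adjusted p = 0.022). A second Bnip3 probe set gave 10.11, 9.99 and 10.11 on the KO arrays, 10.22, 10.13 and 10.20 on the HET arrays and 10.13, 10.16 and 10.05 on the WT arrays, -0.04 from WT (limma adjusted p = 0.624), so the 2 probe sets disagree. Among 24 alternatives the call against WT was lost in 19, with an adjusted p of 0.00974 to 0.623. The call against HET was lost in 7, among them those without HET 1 (-0.21, limma adjusted p = 0.0851) or HET 2 (-0.26, limma adjusted p = 0.0501) and that with the second probe set (-0.11, limma adjusted p = 0.225), over an adjusted p of 0.00889 to 0.225.

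The 4 remaining feedback genes did not pass in either comparison. Ankrd37, an ankyrin repeat protein, was 0.29 ± 0.12 above WT (limma adjusted p = 0.112), and the repressor Bhlhe40 differed by -0.31 ± 0.15 (limma adjusted p = 0.171). The histone demethylase Kdm3a and the MYC antagonist Mxi1 differed by 0.01 and 0.04 (limma adjusted p = 0.942 and 0.638). Bhlhe41, a repressor related to Bhlhe40, was dim on all 9 arrays, between 5.43 and 5.70, and was not tested.

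Among the acid-base, secreted and stress targets the members went different ways. Car12, a membrane carbonic anhydrase that hydrates carbon dioxide outside the cell, read 7.38, 7.18 and 7.14 on the KO arrays, 8.24, 8.33 and 8.02 on the HET arrays and 8.20, 8.50 and 8.02 on the WT arrays. All KO arrays lay well below all others, and HET and WT overlapped. The difference was -1.01 ± 0.13 from WT (2.01-fold lower, limma adjusted p = 0.00182) and -0.96 ± 0.13 from HET (limma adjusted p = 0.00177). Both calls held in all 24 alternatives. Car9, the related enzyme often used as a hypoxia marker, was dim on all 9 arrays, at 5.53, 5.79 and 5.78 on the KO arrays, 5.73, 5.73 and 5.75 on the HET arrays and 5.86, 5.48 and 5.51 on the WT arrays.

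Ndrg1, a stress-induced protein, read 8.56, 9.09 and 9.83 on the KO arrays, 8.48, 8.58 and 8.51 on the HET arrays and 8.42, 8.51 and 8.38 on the WT arrays. KO 3 and KO 2 were high, and KO 1 lay above the WT arrays but within the HET range. Its difference was 0.72 ± 0.25 from WT (limma adjusted p = 0.0651), and 1.02 without KO 1 (limma adjusted p = 0.00658) but 0.39 without KO 3 (limma adjusted p = 0.0847), within 0.00166 to 0.287 over the 24 alternatives.

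Stc2, a secreted stanniocalcin, read 7.69, 7.97 and 7.71 on the KO arrays, 7.59, 7.61 and 7.46 on the HET arrays and 7.55, 7.51 and 7.50 on the WT arrays. All KO arrays lay above the others, KO 2 by the most, at 0.27 ± 0.08 over WT (limma adjusted p = 0.0442) and 0.24 over HET (limma adjusted p = 0.0698). The call against WT was lost in 17 of 24 alternatives, with an adjusted p of 0.00298 to 0.198.

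Adm, the vasodilator peptide adrenomedullin, read 6.92, 7.46 and 7.31 on the KO arrays, 6.76, 6.84 and 6.69 on the HET arrays and 6.58, 6.58 and 7.98 on the WT arrays. WT 3 was above every KO array and the other WT arrays were below every one. The difference from WT was 0.18 ± 0.33 (limma adjusted p = 0.715), and without WT 3 it was 0.64 (limma adjusted p = 0.0199), within 0.0199 to 0.994 over the 24 alternatives. Nrn1, a neuronal surface protein, was dim on most arrays and was not tested, at 6.58, 6.11 and 6.23 on the KO arrays, 6.48, 6.33 and 6.33 on the HET arrays and 6.15, 6.75 and 6.24 on the WT arrays.

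**Figure D2:**
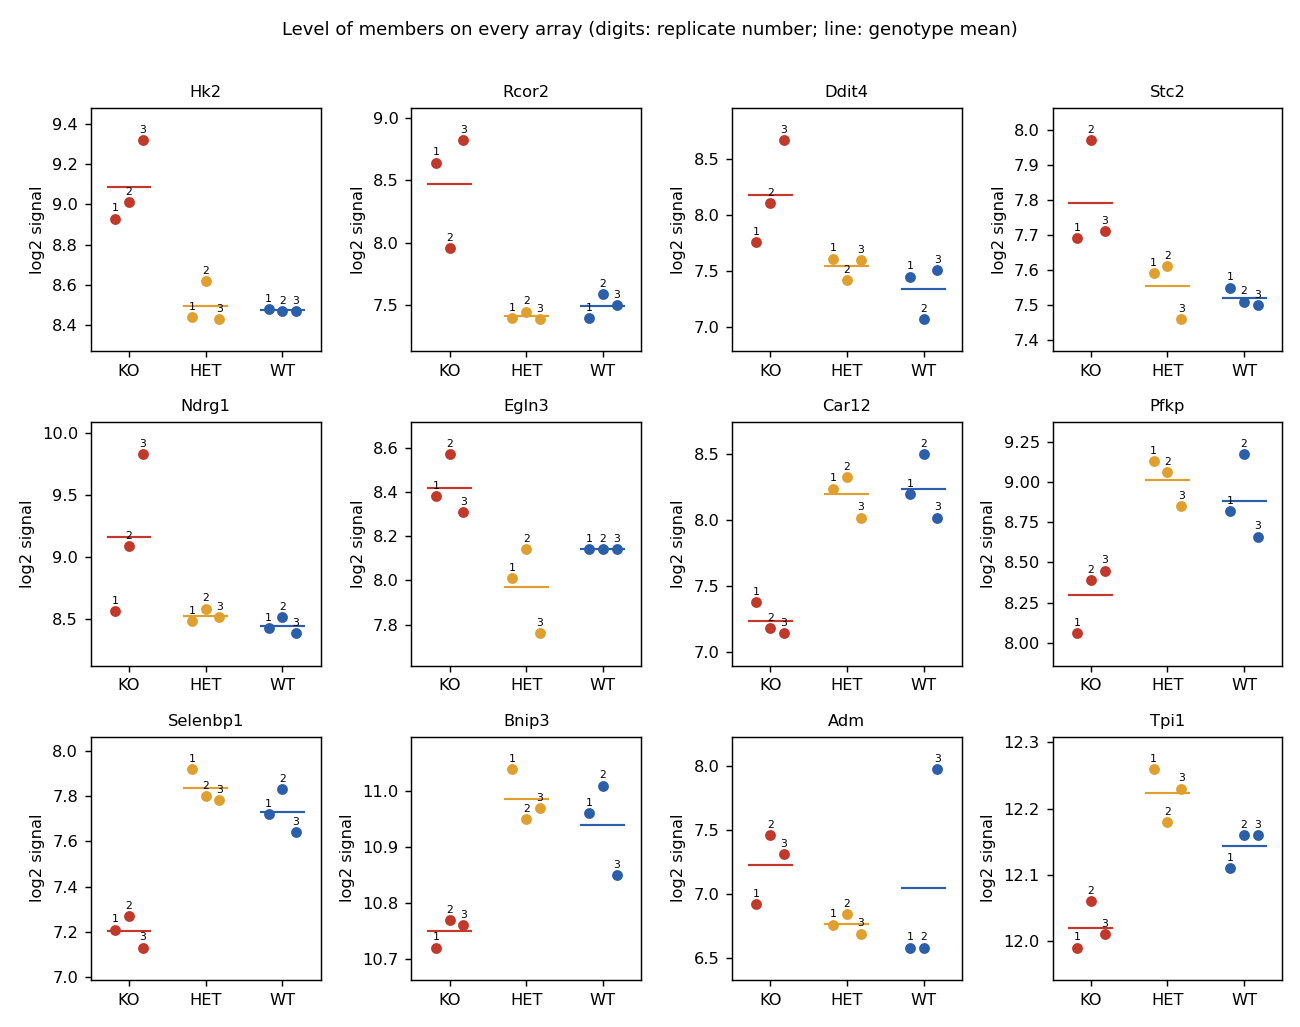
Log2 signal of 12 members on every array, in KO (red), HET (orange) and WT (blue), with the replicate number beside each point and a line at the genotype mean. Hk2, Rcor2, Ddit4, Stc2 and Egln3 are higher on the KO arrays and Car12, Pfkp, Selenbp1, Bnip3 and Tpi1 lower, while 1 WT array of Adm lies above all KO arrays. Bnip3 is drawn from its brighter probe set, and on its second probe set the KO and WT arrays overlapped.

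The collagen-modifying enzymes had their lowest mean in KO and their highest in WT, with a median difference of -0.41 over the 3 tested. P4ha1 and P4ha2 are catalytic subunits of the prolyl hydroxylase that stabilises the collagen triple helix, and Plod2 is the lysyl hydroxylase that prepares collagen crosslinks. P4ha1 read 10.16, 10.01 and 9.94 on the KO arrays, 10.25, 10.32 and 10.18 on the HET arrays and 10.44, 10.26 and 10.63 on the WT arrays. The KO arrays lay below all others, WT 2 lay within the HET range, and the difference was -0.41 ± 0.10 from WT (limma adjusted p = 0.0185) and -0.21 ± 0.10 from HET (limma adjusted p = 0.158). Its call against WT was lost without WT 1 (limma adjusted p = 0.0585), KO 2 (limma adjusted p = 0.0552) or KO 3 (limma adjusted p = 0.0563).

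P4ha2 read 7.96, 8.12 and 8.19 on the KO arrays, 8.42, 8.47 and 8.18 on the HET arrays and 8.91, 8.46 and 9.30 on the WT arrays. KO lay below all WT arrays but overlapped HET at 1 array, and WT 1 and WT 3 stood above everything else. The difference was -0.80 ± 0.18 from WT (1.74-fold lower, limma adjusted p = 0.0144) and -0.27 ± 0.18 from HET (limma adjusted p = 0.334).

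Plod2 read 10.70, 10.13 and 10.21 on the KO arrays, 10.35, 10.53 and 10.25 on the HET arrays and 10.70, 10.51 and 11.04 on the WT arrays. KO 1 matched WT 1 and the other KO arrays were below all the rest, with a difference of -0.40 ± 0.17 from WT (limma adjusted p = 0.119) and -0.03 from HET (limma adjusted p = 0.927). Without KO 1 the difference from WT was -0.58 (limma adjusted p = 0.024). Loxl2, a lysyl oxidase that crosslinks collagen, shared its probe set with Gm21451. That probe set differed by -0.06 from WT (limma adjusted p = 0.493).

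WT 1 and WT 3, the arrays highest for P4ha2, were also those highest for the 8 parietal endoderm markers, whose summed signal ran from 10749 to 11341 on the KO arrays, 10700 to 11268 on the HET arrays and 11337 to 21604 on the WT arrays. Of the 8 markers 1, Thbd, was lower in KO than in WT and none was dim on all arrays. With WT 1 and WT 3 left out, an alternative chosen after seeing the data that leaves WT 2 as the only WT array and takes it to vary like the other genotypes, the difference from WT was -0.22 for P4ha1 (limma adjusted p = 0.217), -0.38 for P4ha2 (limma adjusted p = 0.125) and -0.16 for Plod2 (limma adjusted p = 0.638). Over the 24 alternatives the adjusted p ran from 0.00132 to 0.217 for P4ha1, from 0.00124 to 0.125 for P4ha2 and from 0.00934 to 0.638 for Plod2. In bulk tissue, fewer cells of a type and less RNA per cell cannot be told apart.

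**Figure D3:**
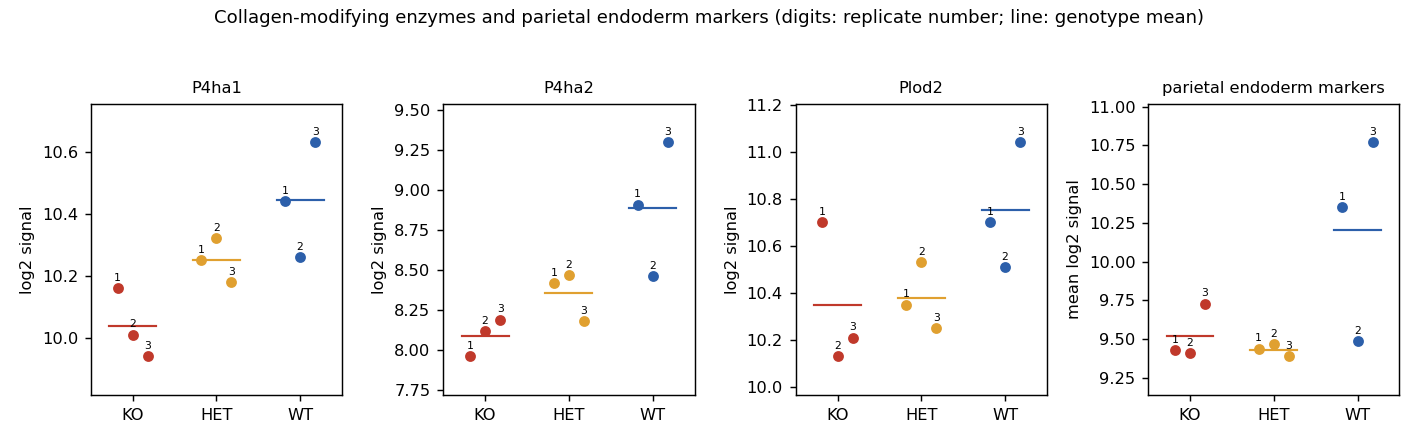
Log2 signal of P4ha1, P4ha2 and Plod2, and the mean log2 signal of 8 parietal endoderm markers, on every array in KO, HET and WT, with replicate numbers and a line at the genotype mean. WT 1 and WT 3 are above WT 2 in all 4 panels.

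The last 3 members have roles outside these groups. Selenbp1, a selenium-binding enzyme that oxidises methanethiol, read 7.21, 7.27 and 7.13 on the KO arrays, 7.92, 7.80 and 7.78 on the HET arrays and 7.72, 7.83 and 7.64 on the WT arrays. The KO arrays lay below all others with little spread, at -0.53 ± 0.07 from WT (limma adjusted p = 0.00212) and -0.63 ± 0.07 from HET (limma adjusted p = 0.00107). Rcor2, a corepressor that partners the histone demethylase LSD1, read 8.64, 7.96 and 8.82 on the KO arrays, 7.40, 7.45 and 7.39 on the HET arrays and 7.40, 7.59 and 7.50 on the WT arrays. Every KO array lay above the rest, KO 2 by the least, at 0.97 ± 0.18 over WT (1.96-fold, limma adjusted p = 0.00679) and 1.06 ± 0.18 over HET (limma adjusted p = 0.0049). Jmjd6, a Jumonji-domain hydroxylase, read 9.65, 9.79 and 9.76 on the KO arrays, 9.65, 9.57 and 9.55 on the HET arrays and 9.67, 9.65 and 9.64 on the WT arrays. The groups overlapped at KO 1, and the difference from WT was 0.08 ± 0.06 (limma adjusted p = 0.34).

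Against HET, which shares the KO arrays with the comparison against WT, 4 members rose (Hk2, Egln1, Egln3 and Rcor2), 5 fell (Pfkp, Tpi1, Bnip3, Car12 and Selenbp1) and 25 did not pass. Over all genes 8.17% were higher, 13.6% lower and 21.8% called in either direction. Groups did not overlap for 8 members that were higher and 9 that were lower, against 15.7% higher, 21.4% lower and 37.1% in either direction over all genes. The median difference of the members was -0.02, and that of all genes was -0.01. With the Xist value of each array as a covariate, 0 members were called higher and 2 lower than HET, when the shares over all genes were 1.83% and 4.55%. Xist was high on every KO array and low on HET 1 and HET 3, so the covariate overlaps with this comparison. In that fit the difference was 0.51 for Hk2, 0.19 for Egln1, 0.37 for Egln3 and 0.96 for Rcor2. It was -0.76 for Pfkp, -0.20 for Tpi1 and -0.19 for Bnip3. The part of sex was not tested.

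In HET against WT 0 of the 34 members passed limma's test in either direction, as was true of 0% of all genes. At an unadjusted p under 0.05 there were 327 genes, and 1 member, P4ha2, at -0.53 ± 0.18 (unadjusted p = 0.0173, limma adjusted p = 0.939). Groups did not overlap for 1 member that was higher, Tpi1, and 1 that was lower, Kdm3a, against 4.25% higher, 5.98% lower and 10.2% in either direction over all genes.

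The rest of the HIF pathway did not move in 1 direction in KO against WT. Of 17 components 2 were called higher, 2 lower and 13 neither, with a median difference of 0.04. Over all genes 8.27% were called higher and 15.2% lower, the shares to set beside this and each pathway list below. The coactivator Crebbp read 11.03, 10.86 and 10.98 on the KO arrays, 10.57, 10.57 and 10.42 on the HET arrays and 10.58, 10.60 and 10.53 on the WT arrays, a difference of 0.39 (limma adjusted p = 0.00544). The ARNT relative Arnt2 was higher by 0.52 (limma adjusted p = 0.0234), while Cul2, the scaffold of the VHL ligase, fell by 0.43 (limma adjusted p = 0.00302) and Arnt, the partner of HIF alpha subunits, fell by 0.20 (limma adjusted p = 0.0431). For the alpha subunits the differences were -0.17 for Hif1a, -0.31 for Epas1 and -0.51 for Hif3a, with limma adjusted p of 0.0867, 0.129 and 0.0766. Their differences from HET were -0.16, 0.05 and -0.42. Epas1 was highest on WT 3, at 10.15 against 9.71 and 9.59 on WT 1 and WT 2. Each count of called components was 1 without WT 1, without WT 2 or without KO 3. HIF activity is set largely at the protein level, which was not measured.

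Of 23 further hypoxia targets tested, 3 were called higher, 1 lower and 19 neither, with a median of 0.03. Wsb1, a ubiquitin ligase subunit, read 9.84, 9.67 and 9.85 on the KO arrays, 9.11, 9.31 and 9.10 on the HET arrays and 9.17, 9.30 and 9.31 on the WT arrays, a difference of 0.53 (limma adjusted p = 0.00326). The lactate exporter Slc16a3 read 9.66, 10.44 and 10.76 on the KO arrays, 9.43, 9.71 and 9.57 on the HET arrays and 9.48, 9.33 and 9.55 on the WT arrays, a difference of 0.83 (limma adjusted p = 0.0313). Its KO 3 value was the highest, as for Ddit4 and Ndrg1. Stc1, a relative of Stc2, was higher by 0.47 (limma adjusted p = 0.00955), and Insig2, a brake on sterol synthesis, fell by 0.29 (limma adjusted p = 0.0136). The count of higher genes was 5 without KO 1 and 0 without WT 1 and WT 3, and that of lower genes was 3 without KO 3. The angiogenic factor Vegfa was at 0.19 (limma adjusted p = 0.1), and Epo was dim on all arrays.

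Of 20 tested genes of glycolysis and gluconeogenesis outside the members, 9 were called lower in KO than in WT, 2 higher and 9 neither, with a median of -0.22. The 2 higher were the aldolase Aldoc (0.50, limma adjusted p = 0.0195) and the enolase Eno3 (0.42, limma adjusted p = 0.0399). The glucose transporter Slc2a2 read 11.46, 11.54 and 11.35 on the KO arrays, 12.08, 11.94 and 11.96 on the HET arrays and 12.02, 12.00 and 11.94 on the WT arrays, a difference of -0.54 (limma adjusted p = 0.00171). Galm, an aldose epimerase, fell by 0.71 (limma adjusted p = 0.00184), Hkdc1, a hexokinase relative, by 0.74 (limma adjusted p = 0.00254) and Fbp2, a fructose bisphosphatase, by 0.67 (limma adjusted p = 0.00848). The count of lower genes was 5 without WT 1 and 3 without WT 1 and WT 3, and that of higher genes was 0 in both.

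Of 21 genes of pyruvate dehydrogenase and glycogen metabolism 0 were called higher, 10 lower and 11 neither, with a median of -0.27. Dld, the lipoamide dehydrogenase subunit, read 9.85, 9.73 and 9.83 on the KO arrays, 10.38, 10.27 and 10.16 on the HET arrays and 10.42, 10.49 and 10.32 on the WT arrays, a difference of -0.61 (limma adjusted p = 0.00171). Pygl, the liver glycogen phosphorylase, fell by 0.89 (limma adjusted p = 0.00281) and Phka2, a phosphorylase kinase subunit, by 0.51 (limma adjusted p = 0.00292). Gys2, the liver glycogen synthase, read 5.45, 5.68 and 5.89 on the KO arrays, 6.95, 6.75 and 6.82 on the HET arrays and 6.78, 7.44 and 6.87 on the WT arrays, with every KO value in the dim range of its array. Gys2 passed the filter through the other genotypes, so its difference is only a bound, at least 1.42-fold lower against the dim level of the KO arrays. The bound itself was not tested, and Gys2 is among the 10 called lower through its dim KO values. With Gys2 set at the bound the list's median was again -0.27. The count of lower genes was 6 without WT 1 or without WT 2, and 5 without WT 1 and WT 3.

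**Figure D4:**
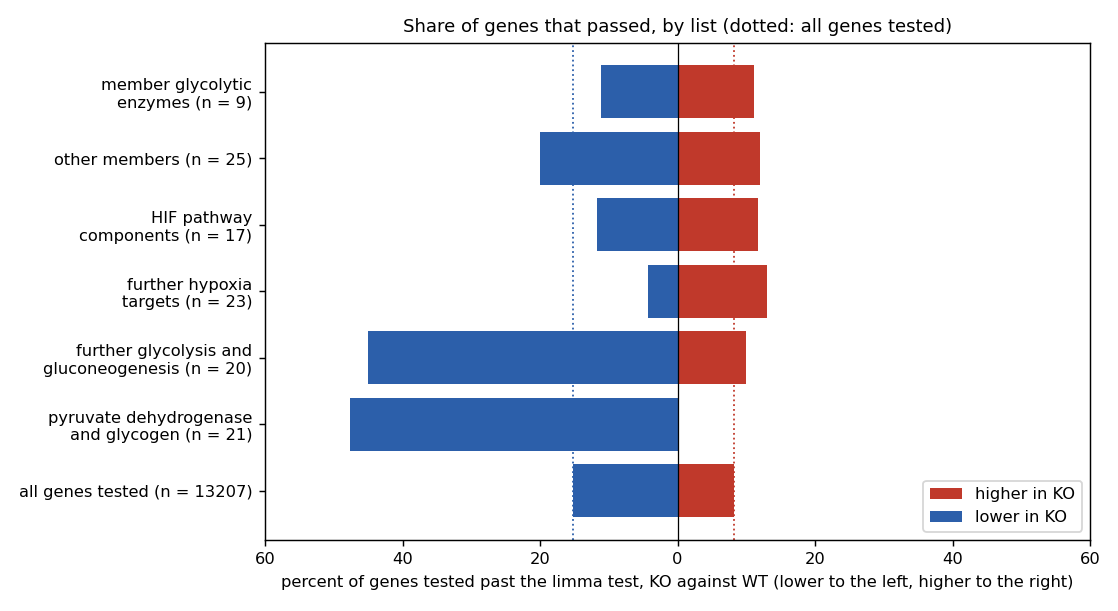
Percent of the tested genes of each list that limma called lower (left, blue) and higher (right, red) in KO against WT, with dotted lines at the shares over all 13207 genes. The member glycolytic enzymes have 1 call on each side, while the pyruvate dehydrogenase and glycogen list has 10 of 21 lower and 0 higher. Gys2, dim in KO, is among the 10.

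Markers of the cell types of the tissue were read next to these lists, and their calls against WT differed from list to list. The shares of all genes called in KO against WT were 8.27% higher and 15.2% lower. Visceral endoderm markers averaged 11.72 to 11.90 log2 signal on the KO arrays, 11.93 to 12.12 on the HET arrays and 11.97 to 12.07 on the WT arrays, with 2 of 10 (Trf and Afp) called lower than in WT. Primitive erythroid markers averaged 10.33 to 10.82 in KO, 10.86 to 11.18 in HET and 10.95 to 11.15 in WT, with 5 of 9 lower (Rhd, Epb42, Alas2, Slc4a1 and Hbb-y). Of 7 extraembryonic mesoderm markers 4 were higher (Hand1, Hand2, Twist1 and Foxf1) and Postn was lower. Tek was the 1 of 7 endothelium markers that was lower, and Mrc1, Csf1r and Fcgr3 were the 3 of 4 macrophage markers that were lower. Trophoblast markers averaged 6.71 to 7.75 in KO, 5.77 to 6.89 in HET and 6.62 to 6.71 in WT, with 0 of the 5 tested past the test and Ctsq and Psg17 dim on all arrays. Decidua markers averaged 7.73 to 8.08 in KO, 7.09 to 7.72 in HET and 7.42 to 7.96 in WT, with 0 of 4 past the test against WT, Prl8a2 higher than HET, and Prl3c1 and Pgr dim on all arrays. Prl8a2 read 10.40, 9.76 and 11.34 on the KO arrays and 6.50, 9.75 and 7.18 on the HET arrays. On the WT arrays it read 9.40, 8.90 and 10.72, so its signal was uneven within and between genotypes. Whether maternal tissue was present in the samples was not tested. Embryo proper markers averaged 6.35, 6.29 and 6.92 on the KO arrays, 6.13 to 6.30 in HET and 5.97 to 6.20 in WT, with a summed signal of 578 to 820 in KO, 509 to 594 in HET and 441 to 528 in WT. The 1 embryo proper marker tested did not pass, and Pax6, Otx2 and Neurog2 were dim on all arrays. Of the other embryo proper markers Sox2 read 5.65, 5.62 and 7.46 on the KO arrays, 5.43 to 5.56 in HET and 5.43 to 5.56 in WT, and Meox1 read 6.96, 5.85 and 7.04 on the KO arrays, 5.61 to 5.86 in HET and 5.46 to 5.85 in WT. Meox1, like Rcor2, was higher on KO 1 and KO 3 than on KO 2. The mean of the trophoblast markers was highest on KO 3, as were Hk2, Ddit4, Ndrg1 and Rcor2. Of the single markers Ascl2, Syna, Plac1 and Tpbpa were highest there, while Prl7a1 and Prl4a1 were lower on KO 3 than on the other KO arrays. Without KO 3 the difference from WT was 0.50 for Hk2 (limma adjusted p = 0.00621, within 0.00026 to 0.0573 over the 24 alternatives) and 0.80 for Rcor2 (limma adjusted p = 0.017, within 0.00116 to 0.0874), while that for Ndrg1 was 0.39, as given above with that for Ddit4. Leaving out KO 3 keeps KO 1, on which Meox1 was also high, so it is no test of these markers. Their part in the member differences was not tested.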

How the data were processed

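Values were deposited as log2 probe set signals, which the authors obtained by RMA, and the submitters' processing notes name Affymetrix Expression Console 1.2.1.20. The labels' protocols give 100 ng of total RNA and 5.5 µg of cDNA per sample. No genome build for the array is used here. The number of arrays limits the precision.

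Of 28350 probe sets, 21780 named 1 gene symbol, 1618 several and 4952 none. The probe set with the highest mean stood for its gene. Genes above the 40th percentile of their array on at least 3 arrays were tested with limma 3.58.1 in R 4.3.3 (1 fit of all 9 arrays, genotype as factor, default empirical Bayes, Benjamini-Hochberg adjustment over 13207 genes, threshold 0.05). The code was tested on simulated data.

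The members, gene lists and tests were chosen with earlier results of these data known. Values on every array were given for called members and up to 3 per role with the smallest unadjusted p, and up to 4 genes were named per pathway list. Pgk1, Ldha, Adm, the dim members, the HIF alpha subunits, Vegfa, Epo, Aldoc, Eno3 and single marker genes were named outside this rule after their values were seen. Filters, probe set rules, normalizations, priors, array weights, covariates and left-out arrays were varied. Promoter sequences came from RefSeq.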

Additional observations from a re-analysis of the deposited data

How the results depend on the processing

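Every count below is of members past limma's test. Members higher in KO than in WT numbered 4, and 8 with array weights, 2 with only the 2 genotypes compared, 0 with WT 1 and WT 3 left out together, and 2 to 5 with single arrays left out. Those lower than WT numbered 6, and 11 with array weights, 2 when at least 1.5-fold was required, 3 with WT 1 and WT 3 left out, and 3 to 7 with single arrays left out. Against HET 4 were higher, and 2 at 1.5-fold, 0 with Xist as a covariate and 3 to 7 with single arrays left out, while 5 were lower, and 3 at 1.5-fold, 2 with Xist as a covariate and 3 to 5 with single arrays left out. The cause of these changes was not tested. In HET against WT 0 members passed under every alternative run. The median difference of the glycolytic enzymes from WT was -0.07, and -0.14 with arrays centred on their medians, which moved the median of all genes to -0.07 and the shares called to 4.37% higher and 19.1% lower. No member's call turned its direction. Same-numbered replicates deviated together in some pairs and not in others (correlations of -0.257 to 0.425), so the numbers were not taken to pair samples. With the replicate number as a block 5 members were higher and 5 lower than WT, and 4 higher and 5 lower than HET. In that fit the shares over all genes were 8.37% higher and 15.3% lower against WT, and 7.99% and 13.6% against HET. That block ended the calls of Bnip3 against WT and Egln1 against HET, and added Egln3 against WT and Ddit4 against HET. Over all genes, shares called higher in KO against WT ran from 1.19% at 1.5-fold to 17.8% with array weights, and shares called lower from 3.41% to 25.7%. At 1.5-fold in KO against HET the shares were 1.2% higher and 3.09% lower. With only the 2 genotypes compared, 5.11% of all genes were called higher in KO than in WT. With single arrays left out, the shares against WT ran from 3.89% to 10.7% higher and from 8.59% to 18.4% lower. Against HET they ran from 4.07% to 8.44% higher and from 7.13% to 15.4% lower.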
